A study of Mus musculus with 12 samples.

Results

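The genes described here make, mineralize or break down bone, and they were read in the 3 turns of the mouse cochlea. They were chosen by name: a probe belonged to a gene when it was not a control spot and the array files listed it under *Runx2*, *Sp7*, *Ibsp*, *Dmp1*, *Mepe*, *Phex*, *Alpl*, *Acp5*, *Ctsk* or *Spp2*. All 10 names were on the array, with 66 of the 165865 probes used, and they are 10 of 19505 genes. The series holds 12 exon arrays labeled in a single color, with 4 apical, 4 middle and 4 basal samples of the cochlea of male C57BL/6 mice aged 6 weeks, for which the labels name no treatment and no engineered allele. The animals were 4 in number, and the labels do not say which arrays of different turns came from the same mouse. Each array received RNA labeled from 25 ng of total RNA. The bony otic capsule had been taken off before the turns were cut, and each piece kept its share of the lateral wall, of the sensory epithelium and of the spiral ganglion neurons. The 4 arrays of a turn shared 1 slide, so that slide and turn cannot be told apart.

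Bone is laid down by osteoblasts, whose development needs the transcription factors RUNX2 and, downstream of it, SP7 (osterix). Osteoblasts and the osteocytes that they become secrete acidic phosphoproteins that bind mineral, among them bone sialoprotein (*Ibsp*), *Dmp1* and *Mepe*, while the phosphatase of *Alpl* and the peptidase of *Phex* act on mineralization and phosphate balance. Osteoclasts resorb bone with tartrate-resistant acid phosphatase (*Acp5*) and cathepsin K (*Ctsk*). *Spp2* encodes secreted phosphoprotein 24, a bone matrix protein that binds bone morphogenetic proteins. The adult cochlea lies inside a bony shell and around a bony core, the modiolus, and bone cells are not part of its sensory or secretory epithelia.

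On the mm9 build, the probes of *Dmp1*, *Ibsp* and *Mepe* lie next to each other on the plus strand of chromosome 5, from 104636110 to 104642977, from 104731460 to 104739779 and from 104756092 to 104767475. The probes of *Spp2* lie on the plus strand of chromosome 1, and those of *Runx2* span 44741012 to 44951528 on chromosome 17 (minus strand). The probes are 60 bases long and were designed to exons. The sequences of 4 of them are shown because the results below turn on where along a transcript a probe lies. They are given 5′ to 3′ in the sense of the transcript, as the array files list them. The first is the upstream probe of *Dmp1* (chr5:104636110-104636169), with the first ATG of a frame without a stop in capitals. The next is the *Ibsp* probe at chr5:104735006-104735065, with its longest run of A and G in capitals. Bone sialoprotein is known for runs of acidic residues, whose codons begin with GA. The next is the most upstream probe of *Spp2* (chr1:90303725-90303784, ATG in capitals). The last is the brightest *Runx2* probe (chr17:44746980-44747039, minus strand), with nothing marked.
Dmp1 A_56_P059636: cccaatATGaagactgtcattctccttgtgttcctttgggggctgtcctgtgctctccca
Ibsp A_56_P062336: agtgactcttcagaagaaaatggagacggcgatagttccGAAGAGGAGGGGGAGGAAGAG
Spp2 A_56_P081652: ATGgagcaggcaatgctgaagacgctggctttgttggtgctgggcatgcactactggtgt
Runx2 A_56_P103404: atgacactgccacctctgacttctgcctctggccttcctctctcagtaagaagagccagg

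A level below is a scaled signal in fluorescence units: the background-subtracted brightness of a spot, with each array brought to the same 75th percentile, averaged on the log2 scale over the probes of a gene. The precision rests on the 4 arrays per turn. Between 77.4% and 81.4% of the spots of an array were well above background, no probe spot was saturated, and the arrays of a turn correlated with r from 0.991 to 0.995 over genes. Signals of different genes were not compared with each other, since probes differ in how well they bind.

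*Spp2* and *Dmp1* differed 2-fold or more between turns, both with the highest signal in the base, and the mean of the *Runx2* probes was 1.26-fold higher in the apex, a direction that turned under other processing. Between the ends of the cochlea, 1 of the 10 genes was called with more signal at the apex (*Runx2*) and 2 with more at the base (*Dmp1* and *Spp2*) at an adjusted p below 0.05 in limma, where 17.6% and 21.6% of all genes were, 39.2% in either direction. The arrays of these turns did not overlap in the same 3 of 10 genes, and in 38.3% of all genes. Against the middle turn, *Runx2* was higher at the apex and *Spp2* lower, where 4.42% and 7.61% of all genes were called in these directions, 12% in all, and the arrays of both genes did not overlap, as in 20.8% of all genes. *Dmp1* was the 1 gene called between the middle turn and the base, with more signal in the base, where 9.23% of all genes were called that way, 11.6% the other way and 20.9% in all. By the stricter rule of a moderated F test over the 3 turns with a 2-fold difference, 2 of the 10 genes passed (*Dmp1* and *Spp2*), against 4.69% of all genes. The median difference of the 10 genes between apex and base was 0.11 on the log2 scale, beside -0.04 over all genes. This median includes apex replicate 4, the highest array in 7 of the 10 genes, and its sign is not firm. Under the 25 alternatives the differences of *Sp7*, *Mepe*, *Phex*, *Alpl* and *Acp5* lay on both sides of 0 (*Mepe* from -0.25 to 0.56).

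**Figure D1:**
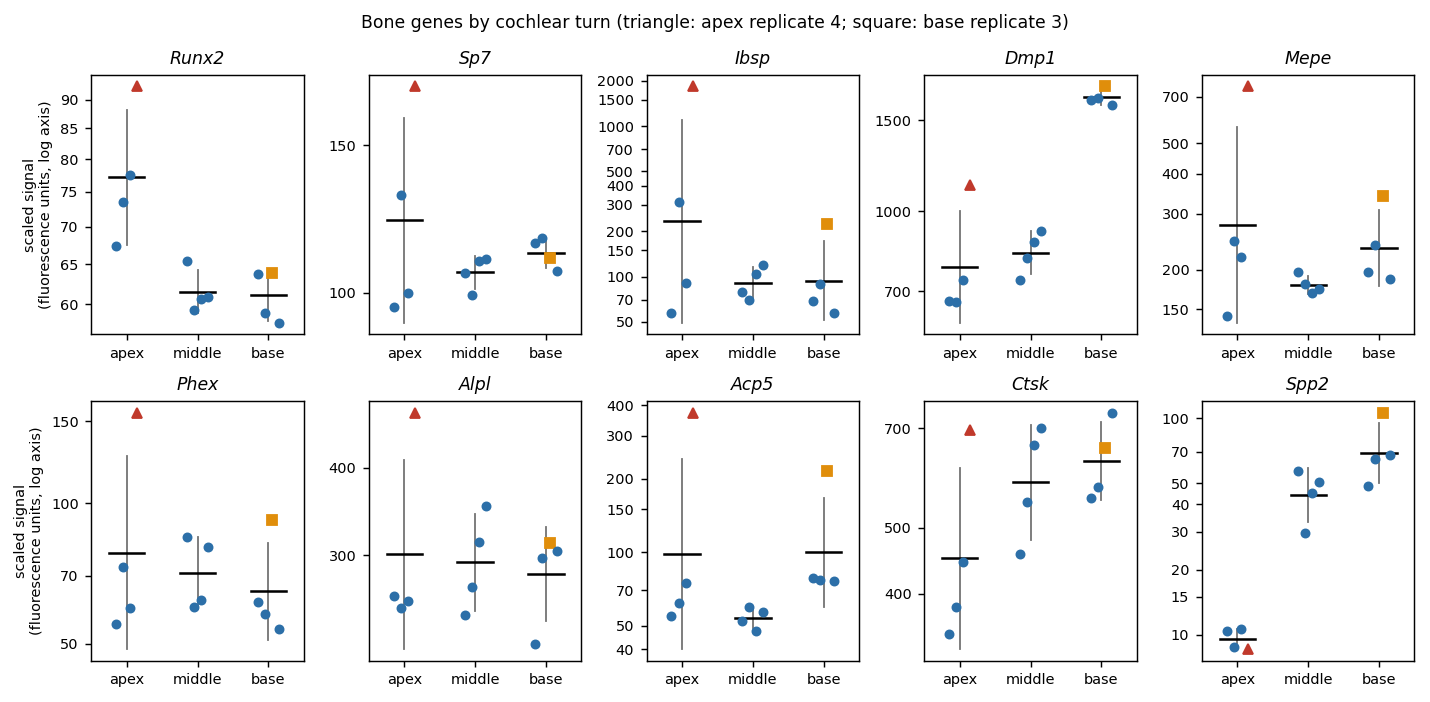
Scaled signal (fluorescence units, log axis) of the 10 bone genes on each of the 12 arrays, by cochlear turn. Points are arrays, the horizontal line is the mean of the 4 log2 values and the vertical line is ± 1 SD of them. Red triangles are apex replicate 4, the highest array in 7 of the 10 genes, and orange squares are base replicate 3. Only *Runx2*, *Dmp1* and *Spp2* have no overlap between apex and base.

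*Spp2* had the largest difference. Its signal was 10.4, 8.83, 10.6 and 8.65 on the apical arrays 1 to 4, with a mean of 9.62 ± 1.03 (SD, n = 4). In the middle turn it was 57.3, 29.6, 45.2 and 50.6, and in the base it was 48.9, 64.8, 106 and 67.9. Every apical array lay below every array of the other turns, while middle and base overlapped. The fitted apex minus base difference was -2.85 on the log2 scale (SE 0.238, limma adjusted p = 8.455e-06), and both the base and the middle turn (adjusted p = 0.0005496) were called above the apex. Every apical probe value was also raised to at least the dimmest signal well above background on its array. The base was then 4.61-fold and the middle turn 2.96-fold above the apex. These folds are not strict lower bounds, since a probe can read above that dimmest signal and not be well above background. Middle and base did not pass the test against each other (middle minus base -0.64, adjusted p = 0.08081).

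The apical signal of *Spp2* was at the limit of what the arrays read. Of its 5 probes, 4 were not well above background on any apical array and the other was so on 1 of 4, whereas 4 were well above background on every basal array. For the 4 probes that were dim on every apical array the fold depends on the background, and it is given here for 3 of them. It sets the basal mean against the higher of the probe's own signal and the dimmest signal well above background on each apical array. The most upstream probe, which holds the ATG shown above, gave 4.00-fold more signal in the base than in the apex (adjusted p = 0.0004934). Its own apical signals of 13.6 to 23.8 set this fold, although none of them was well above background. Probes further downstream gave 2.97-fold (adjusted p = 0.001161) and 4.70-fold (adjusted p = 3.194e-06), and the probe measured in part of the apex gave 3.12-fold. Tested one by one, all 5 probes were called lower in the apex than in the base, where 34.4% of all probes were called in either direction. Against the middle turn, the 4 probes that were well above background on at least 1 middle array were called lower in the apex (5.9% of all probes in either direction), and the other one was not above background in either turn. The size depended on how the background was treated: with normexp correction the apex minus base difference was -0.98. It was called under all 25 alternatives, with an adjusted p of at most 8.95e-05.

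*Dmp1*, whose protein is made by osteocytes and binds calcium, had signals of 669, 668, 736 and 1124 at the apex, 738, 812, 871 and 918 in the middle and 1645, 1661, 1746 and 1608 in the base. The basal arrays lay above all others, and apex and middle overlapped. The base was 2.13-fold above the apex (95% interval 1.71 to 2.67, adjusted p = 0.0001927) and 2.00-fold above the middle turn (adjusted p = 0.001188). Apex and middle differed by -0.09 on the log2 scale (adjusted p = 0.7042).

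The difference of *Dmp1* came from 1 of its 2 probes. The upstream probe, whose sequence with the start codon is shown above, gave 1055, 1012, 1107 and 1170 at the apex, 863, 1050, 1171 and 1171 in the middle and 1231, 1157, 1257 and 1198 in the base, a difference of -0.16 between apex and base (adjusted p = 0.2401). The downstream probe A_51_P264769 (chr5:104642918-104642977), which starts at base 2556 of the transcript as the files number it, gave 425, 441, 490 and 1080 in the apex. Its middle-turn signals were 630, 628, 648 and 719, and in the base it gave 2198, 2385, 2426 and 2158. The apex minus base difference at this probe was -2.03 (adjusted p = 0.0001708) and the middle minus base difference -1.80 (adjusted p = 0.001351), where 13.8% of all probes were called between these turns. The difference between the probes, taken within each array, did not overlap between apex and base. The gene mean of *Dmp1* is therefore a mean of an almost level and a strongly graded probe.

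**Figure D2:**
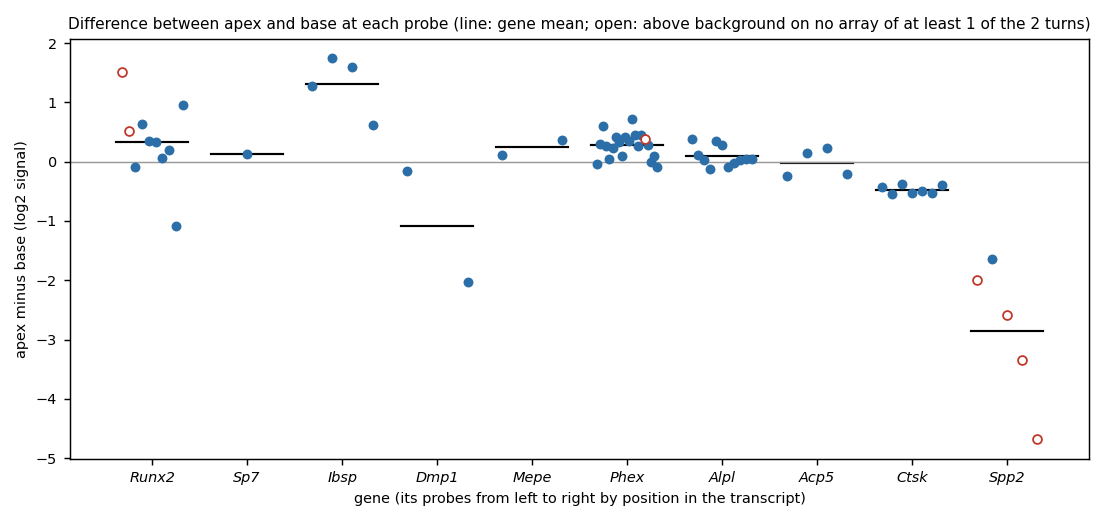
Apex minus base difference (log2 signal) at each of the 66 probes, by gene and, from left to right within a gene, by position in the transcript. The line is the difference of the gene mean. Open circles were well above background on no array of at least 1 of the 2 turns. The probes of *Ctsk* lie between -0.54 and -0.38 and those of *Spp2* between -4.69 and -1.64, whereas *Dmp1* has one probe at -0.16 and one at -2.03 and *Runx2* spans -1.09 to 1.51.

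*Runx2*, the transcription factor that starts osteoblast development, had low signals of 67.3, 73.5, 77.6 and 92.4 at the apex, 65.4, 59.3, 60.7 and 60.9 in the middle and 63.7, 59.0, 63.9 and 57.9 in the base. Every apical array lay above every array of the other turns. The apex was 1.26-fold above the base (95% interval 1.11 to 1.44, adjusted p = 0.009328) and 1.25-fold above the middle turn (adjusted p = 0.03516). The call against the middle turn was made in 13 of 25 alternatives, with differences from -0.14 to 0.52 and an adjusted p of up to 0.873. Its 10 probes did not share this direction. Tested one by one, 3 were called with more signal in the apex than the base and 1 with less. The latter is the brightest, A_56_P103404 shown above, with 3113, 3089, 3317 and 2905 at the apex, 3444, 3425, 3664 and 3912 in the middle and 7654, 6139, 5803 and 6909 in the base, an apex minus base difference of -1.09 (adjusted p = 1.654e-05). In the base, 2 of the 10 probes were not well above background on any array and 3 were so on all 4. Where the linear signals of the probes were averaged, so that the brightest one dominates, the apex minus base difference turned to -0.85 (adjusted p = 9.47e-06), and it was also below 0 with scaling to the spike-in probes (-0.15, adjusted p = 0.33) and with normexp background correction (-0.012, adjusted p = 0.892). The direction of *Runx2* is thus set by how its probes are combined and scaled.

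*Sp7*, the osteoblast transcription factor that acts after *Runx2*, was read by a single probe. It gave 96.3, 131, 99.8 and 176 at the apex, 106, 99.3, 109 and 110 in the middle and 115, 116, 110 and 106 in the base. The turns overlapped and the apex minus base difference was 0.13 (95% interval -0.22 to 0.47, adjusted p = 0.5894).

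The other matrix and mineral genes varied more between the arrays of the apex than between turns. *Ibsp*, one probe of which is shown above, gave 57.3, 312, 90.1 and 1836 on the apical arrays, 79.2, 70.3, 103 and 120 in the middle turn and 68.4, 88.7, 224 and 57.7 in the base. The lowest and the highest of the 12 values were both apical, and the apex minus base difference of 1.31 had an SE of 0.895 (95% interval -0.66 to 3.28, adjusted p = 0.294). The probe shown above had the same arrays on top, with 1500 on apex replicate 4 and 225 on apex replicate 2. *Mepe*, the osteocyte phosphoprotein, gave 143, 246, 220 and 754 at the apex, 196, 180, 168 and 174 in the middle and 196, 240, 341 and 187 in the base (apex minus base 0.24, 95% interval -0.65 to 1.13, adjusted p = 0.7046). *Phex*, whose loss causes phosphate wasting, gave 55.2, 73.2, 59.8 and 157 at the apex, 84.8, 59.8, 62.0 and 80.6 in the middle and 61.3, 58.0, 92.1 and 53.7 in the base (0.28, 95% interval -0.39 to 0.94, adjusted p = 0.5354). *Alpl*, the tissue-nonspecific alkaline phosphatase, gave 263, 253, 258 and 480 at the apex, 247, 271, 314 and 353 in the middle and 224, 298, 313 and 304 in the base (0.09, 95% interval -0.36 to 0.55, adjusted p = 0.7706). For these 4 genes the turns overlapped in all 3 comparisons. A p above the threshold does not show equal levels. The apex minus base intervals allow differences of up to 1.13 on the log2 scale for *Mepe* and more for *Ibsp*.

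Of the osteoclast genes, *Ctsk* was lower in the apex at every probe but did not pass the test. Its signal was 349, 382, 446 and 695 at the apex, 457, 546, 662 and 701 in the middle and 552, 574, 656 and 738 in the base. The 4th apical array lay among those of the other turns, and the other 3 lay below every middle and basal array. The apex minus base difference was -0.47 (SE 0.208, adjusted p = 0.09642), negative at 7 of 7 probes, and it was called in 5 of 25 alternatives. Without apex replicate 4 it was -0.68 (adjusted p = 0.00708) and the apex minus middle difference was -0.58 (adjusted p = 0.0435). This array is singled out here for its values in these genes, and it held the only apical *Ctsk* value among those of the other turns. Leaving it out narrows the apical spread, so these p values cannot be read as a test of the turns. *Acp5* gave 54.7, 61.8, 74.8 and 373 at the apex, 52.5, 59.6, 47.6 and 57.0 in the middle and 78.1, 77.4, 216 and 76.2 in the base. Every middle array lay below every basal array, as in 24.1% of all genes, but the difference of -0.89 did not pass the test (SE 0.553, adjusted p = 0.2703). Without apex replicate 4 and base replicate 3 the middle minus base difference of *Acp5* was -0.52 (adjusted p = 0.0101), the only call in 25 alternatives. These arrays were left out after the data were seen, and *Acp5* itself lay far from the other arrays of the turn on both. Leaving them out narrows its spread by choice, so this p cannot be read as a test of the turns.

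A pair of arrays stood apart in these genes. Apex replicate 4 was the highest of the 12 arrays in 7 of the 10 genes (*Runx2*, *Sp7*, *Ibsp*, *Mepe*, *Phex*, *Alpl* and *Acp5*). Ratios to the other arrays of a turn use the mean of their log2 signals. Against the other apical arrays, apex replicate 4 gave 15.7 times the signal of *Ibsp*, 5.90 times that of *Acp5*, 3.81 times that of *Mepe*, 2.51 times that of *Phex* and 1.86 times that of *Alpl*. Base replicate 3 gave 3.18 times the *Ibsp*, 2.79 times the *Acp5*, 1.65 times the *Mepe* and 1.60 times the *Phex* signal of the other basal arrays. *Ibsp*, *Mepe*, *Phex* and *Acp5* were thus high on both arrays. *Ctsk* ranked only 3 of 12 on apex replicate 4 and 5 of 12 on base replicate 3, where it gave 1.06 times the signal of the other basal arrays. Over the 12 arrays *Ibsp* correlated with *Mepe* (r = 0.92), *Sp7* (r = 0.92) and *Phex* (r = 0.89), which is a description of arrays that share these outlying values. *Ctsk*, *Dmp1* and *Spp2* correlated less with *Ibsp* over the 12 arrays, with r = 0.23, r = 0.03 and r = -0.42, values that also hold their differences between turns. Within the apex, replicate 4 still gave 1.78 times the *Ctsk* and 1.63 times the *Dmp1* signal of the other apical arrays. For *Spp2* it gave 0.87 times their signal. Without both arrays, 4 of the 10 genes were called in apex vs. base, 1 in apex vs. middle and 2 in the remaining comparison. Of all 19505 genes, 7238, 2095 and 4207 were called in these comparisons. Between apex and base, *Dmp1* was then at -1.25 (adjusted p = 1.58e-05) and *Spp2* at -2.60 (adjusted p = 6.63e-05). The 2 arrays were chosen by their values in these genes.

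Some other bone genes and genes of blood and marrow were high on the same array. Of 55 further bone genes, 17 were highest on apex replicate 4 and 4 on base replicate 3, where 5.34% and 2.73% of all genes were. Others did not share this order, and apex replicate 4 ranked 9 of 12 for *Spp1*, *Omd* and *Car2* and 12 of 12 for *Slc20a2*. *Bglap2* (osteocalcin) gave 1807, 3490, 2288 and 12199 at the apex, 4274, 4154, 4167 and 4920 in the middle and 7177, 8385, 8389 and 7704 in the base, so that its turns would not have overlapped between apex and base without apex replicate 4. *Col1a1*, the main collagen of bone, gave 260, 478, 369 and 1328 in the apex and at most 629 elsewhere. Among 11 genes of red cells and marrow, 8 were highest on apex replicate 4 (*Car1*, *Elane*, *Mpo*, *Camp*, *Ngp*, *S100a8*, *S100a9* and *Ltf*), and *Hba-a1* and *Hbb-b1* were highest on base replicate 3. The 2 arrays did not share this order. Base replicate 3 ranked only 6 to 11 of 12 for those 8 genes, and apex replicate 4 ranked 4 of 12 for *Hba-a1* and *Hbb-b1*. The neutrophil gene *S100a8* gave 1407, 4906, 202 and 11774 at the apex, 1351, 2541, 257 and 196 in the middle and 483, 341, 586 and 268 in the base. The order of the apical arrays was the same as for *Ibsp* only at the top, where replicate 4 was followed by replicate 2. All 11 marrow genes were well above background in at least 1 turn, none was at 0, their summed signal ran from 37222 to 96235 at the apex, from 49634 to 72824 in the middle turn and from 30527 to 77761 in the base, and 1 of them (*Ltf*) was called higher at the apex than at the base. The part of bone fragments or marrow in these signals was not tested, and in tissue pieces fewer cells of a type and less RNA per cell cannot be told apart.

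**Figure D3:**
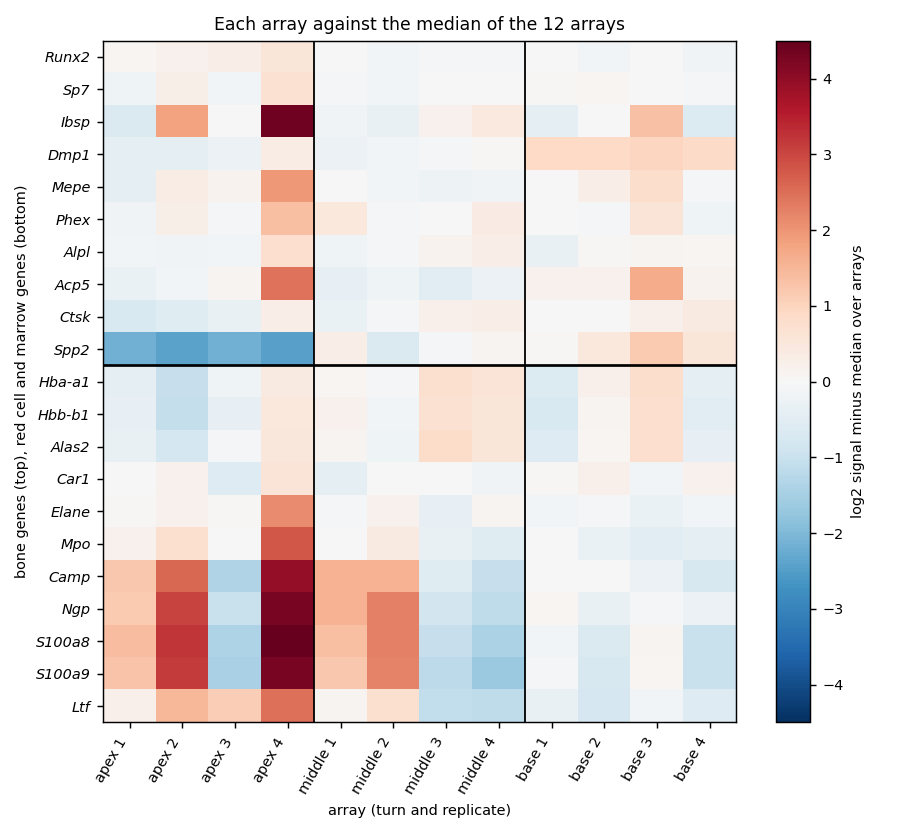
Signal of the 10 bone genes (top) and of 11 red cell and marrow genes (bottom) on each array, as the log2 difference from the gene's own median over the 12 arrays (color). Columns are arrays, grouped by turn. Apex replicate 4 is red in most rows of both groups. Base replicate 3 is red for *Ibsp*, *Mepe*, *Phex*, *Acp5* and *Spp2*, and also for *Dmp1*, *Hba-a1* and *Hbb-b1*, among other rows. *Dmp1* and *Spp2* follow the turns.

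A wider list of 55 bone genes on the array showed how far the base was above the apex outside the 10 genes. Of the 55, 1 had more signal at the apex and 22 had more at the base (beside 17.6% and 21.6% of all genes), with a median difference of -0.12 on the log2 scale beside -0.04 over all genes. From middle to base 2 fell and 13 rose (beside 11.6% and 9.23% of all genes), and from apex to middle 0 fell and 9 rose (beside 4.42% and 7.61%). By group, the apex vs. base calls were 3 of 8 osteoblast transcription factors, 3 of 14 matrix and mineral proteins, 6 of 11 genes of osteoclast formation and 6 of 11 of osteoclast resorption, all higher in the base, and among 11 osteocyte and phosphate genes 4 were higher in the base and 1 in the apex. Of 7 macrophage genes, 5 were also higher in the base and 0 in the apex, with a summed signal of 1920 to 2446 in the apex and 2767 to 3521 in the base. Macrophages share many genes with osteoclasts, and the part of either cell in the osteoclast lists was not tested.

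The genes of the wider list that were called and 1.5-fold or more apart were 8. *Car2*, a carbonic anhydrase of osteoclasts that is also abundant in other cell types, ran from 6167 to 7657 at the apex, from 11521 to 13887 in the middle turn and from 24760 to 33348 in the base, 4.37-fold from apex to base (adjusted p = 1.96e-07), with no overlap between any turns. *Omd*, an osteoblast proteoglycan, ran from 631 to 1158, from 1202 to 1403 and from 2143 to 2684 (2.88-fold, adjusted p = 3.675e-05). *Smpd3*, a sphingomyelinase needed for mineralization, was level between apex and middle (57.8 to 122 and 63.5 to 89.2) and higher in the base (214 to 320, 3.24-fold over the apex, adjusted p = 0.0001518). This is the shape of *Dmp1*, and *Sparc* (osteonectin) had it too, with 14109 to 18683, 15740 to 18875 and 27829 to 35658 (1.91-fold, adjusted p = 4.508e-05). *Spp1* (osteopontin) was lowest in the apex, 1.64-fold below the base (adjusted p = 0.0001106) and 1.43-fold below the middle turn (adjusted p = 0.005701), which is the shape of *Spp2*. *Tnfrsf11b* (osteoprotegerin), the decoy that blocks osteoclast formation, was 1.75-fold above its apical level in the base (adjusted p = 0.0001045). The phosphate transporter *Slc20a1* went the other way, with 289 to 387 at the apex, 295 to 401 in the middle turn and 156 to 268 in the base (1.75-fold, adjusted p = 0.002225). *Tm7sf4*, needed for osteoclast fusion, was called lower in the middle turn (adjusted p = 0.03779) and in the apex (adjusted p = 0.03403) than in the base, but none of its 3 probes was well above background on all arrays of any turn and none on any array of the middle turn, so no fold is given. Its turns overlapped in both comparisons. The call between apex and base was made in 16 of 24 alternatives and that between middle and base in 13 of 24.

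**Figure D4:**
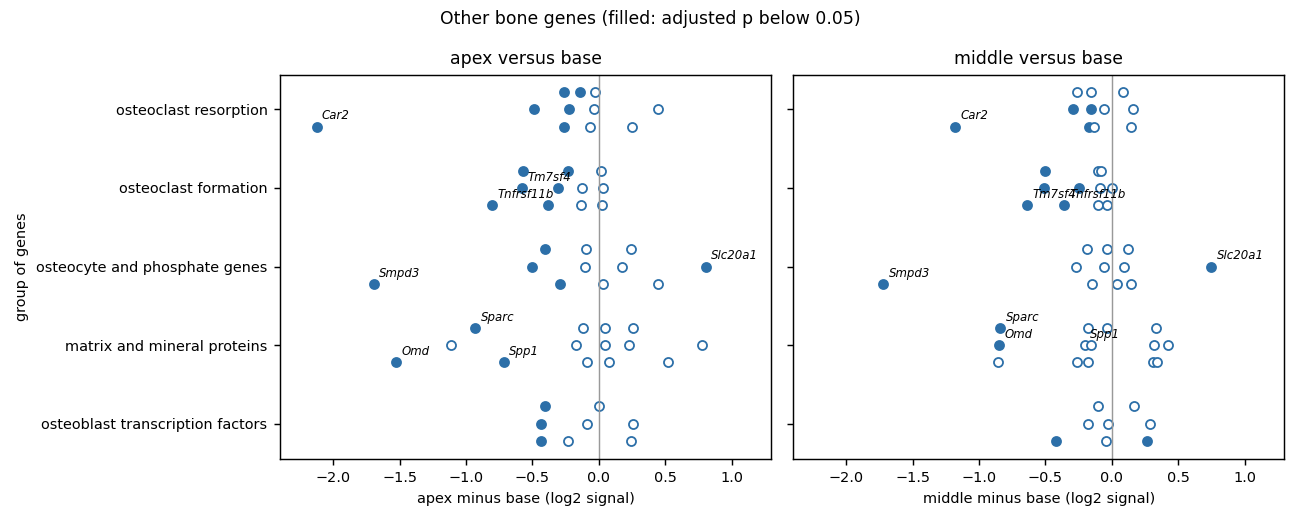
Differences of the 55 other bone genes by group, apex minus base (left) and middle minus base (right), in log2 signal. Each circle is a gene, filled where its adjusted p was below 0.05, and the 8 named genes are labeled. In the left panel 22 filled circles lie below 0 and 1 (*Slc20a1*) above.

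Genes of other cochlear cells moved with the turns as well. All 6 spiral ligament fibrocyte genes and 5 of 6 stria vascularis genes were called with more signal at the base than at the apex (beside 21.6% of all genes), with summed signals of 342464 to 371959 against 627380 to 706496 for the ligament genes and 40105 to 45969 against 59434 to 78638 for the strial genes. Of 9 cartilage genes, 2 were called towards the apex and 4 towards the base. All 6 hair cell genes, all 6 Schwann cell genes and 4 of 6 neuronal genes were called towards the apex (beside 17.6% of all genes), and 1 neuronal gene towards the base. The lateral wall lists thus moved the same way as *Dmp1* and *Spp2*, and the part of tissue composition in either gene was not tested.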

How the data were processed

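Labeled RNA of 12 cochlear samples was hybridized to 12 single-color Agilent exon arrays. The authors scanned them and extracted spot intensities with Feature Extraction 10.7.3.1, which subtracted a background surface and gave low spots a small positive stand-in. The deposited intensity of each spot is not normalized between arrays. Spot type and 0 or 1 flags (other columns as deposited) marked control spots, spots of poor quality, saturation and signal well above background. Probe positions are those of mm9 in the files.

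Of 180880 spots, 7914 controls were left out. A spot flagged on 1 array was dropped from every array (622 spots), which removed 119 probes and left 165865 and 19505 gene names. As in the study, signals were scaled to the 75th percentile of the array (534 to 722 before scaling) and log2 probe values were averaged per gene. limma 3.58.1 in R 4.3.3 (with the package data.table, version 1.17.8) was fitted over all 12 arrays (lmFit, contrasts, eBayes), with Benjamini-Hochberg adjustment over all genes and calls at 0.05. The stricter rule took the moderated F test and 2-fold or more, after the study's one-way ANOVA. Arrays were grouped by the turn in their labels. All 10 genes were named. Of the wider list, genes called and 1.5-fold or more apart were named, at most 12. For each of the 10 past the stricter rule, the 3 genes most like it were named. The gene list, the wider list and the marker lists were chosen with earlier results of these data known. A marker gene of the marrow list and a probe sequence are not reported here.

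On simulated data for apex vs. base over 19505 genes, 82 of 100 genes changed by 1 on the log2 scale and 96 of 100 changed by 2 were called, with 14 others. The alternatives were quantile normalization, median and spike-in scaling, normexp background correction (offset 50), a pseudocount of 16, other ways to combine probes, flagged spots kept, limma's trend and robust options, only 2 turns, a replicate block and each array left out. Leaving out 2 arrays together and testing each probe on its own were added after the data were seen.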

Additional observations from a re-analysis of the deposited data

Results flagged for a closer look

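Among the 30 sets of 4 arrays (10 genes in 3 turns), 4 single arrays lay far from the other 3 by Dixon's ratio, the gap to the nearest array over the whole range, which passed the 95% critical value for 4 samples. Chance gives about 1 in 20 sets. *Alpl* was high on apex replicate 4 (ratio 0.939) and low on base replicate 1 (ratio 0.851). *Acp5* was high on apex replicate 4 (ratio 0.838) and on base replicate 3 (ratio 0.976). The ratio was taken on the log2 scale.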

How the results depend on the processing

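*Dmp1* (apex vs. base and middle vs. base) and *Spp2* (apex vs. base and apex vs. middle) were called in the same direction under all 25 alternatives, with apex minus base differences from -1.58 to -1.02 for *Dmp1* and from -3.64 to -0.98 for *Spp2*. *Runx2* was called in 19 of 25 between apex and base, 1 of them with the other sign. With mean linear probe signals its differences were -0.85, -0.14 (apex minus middle) and -0.71 (middle minus base), and apex minus base was -0.15 with spike-in scaling and -0.012 with normexp. The cause was not tested beyond its probes. Its apex vs. base call was lost with quantile normalization, median scaling, bright probes alone and the pseudocount.

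The 10 genes called between apex and middle were 1 with quantile normalization, median scaling, spike-in scaling, normexp, bright probes alone, mean linear signals, transcript identifiers, only 2 turns and without both outlying arrays (1 to 3 with single arrays left out). Those between middle and base were 2 with quantile normalization, spike-in scaling, mean linear signals and without both arrays (1 to 2 with single arrays left out). The stricter rule gave 1 with normexp. Spike-in scaling moved the median of all genes between apex and base to -0.52 and called 15109, 7930 and 7328 genes in the comparisons of apex with base, apex with middle and middle with base and 42, 19 and 26 of the wider list. The share of apex vs. base calls higher in the apex was 44.9%, and 5.13% with spike-in scaling, 26.5% with median scaling, 36.9% with quantile normalization and 36.2% with mean linear signals. Median scaling called 3542 genes between apex and middle, and the median of probes called 8 of the wider list between middle and base. With single arrays left out, all-gene calls ran from 965 to 3536 (apex vs. middle) and from 2656 to 4755 (middle vs. base), and the wider list from 5 to 10 and from 8 to 19. An unmoderated ANOVA with 2-fold gave 882 genes. Of single-gene values called neither here nor in the report, 71 changed sign. The series value table equals the processed signal, so it gave no other values. Dim genes are limited by background.

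Samples of the same number were not treated as paired, since not every pair of the same number deviated together (correlation -0.037 to 0.227 over 12 pairs, mean 0.0949, beside -0.0313 for different numbers, with a limit of 0.1 for every pair), although 8 of 12 arrays correlated best with their own number. With the number as a replicate block, 4, 3 and 1 of the 10 genes were called in the 3 comparisons, 2 by the stricter rule and 23, 10 and 19 of the wider list. Of all 19505 genes, 8167, 3322 and 5060 were called in the 3 comparisons. *Ctsk* was then called between apex and base (adjusted p = 0.00665) and between apex and middle (adjusted p = 0.0437).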

Other observations

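The genes whose log2 signal followed *Dmp1* most closely over the 12 arrays, among 16502 genes well above background in at least 1 turn, were *Col11a1* (Pearson r = 0.97), *Klf9* (r = 0.97) and *Dapk2* (r = 0.97). Those closest to *Spp2* were *Abcf2* (r = 0.98), *Ppp1r12c* (r = 0.98) and *2700078K21Rik* (r = 0.97). These arrays share slides within a turn, so the correlations describe the pattern over 3 turns and 4 arrays each.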
